A study of Mus musculus with 4 samples.

Results

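The small leucine-rich proteoglycans are secreted matrix proteins, and 10 of their genes (Dcn, Bgn, Lum, Fmod, Ogn, Aspn, Omd, Prelp, Podn and Kera) were followed here among 16593 named genes on an Illumina mouse bead array. They were chosen by gene symbol, which found 14 probes, 3 of them for Ogn, 2 each for Dcn and Fmod, and 1 for each other gene. The RNA came from mouse embryonic fibroblasts of p19ARF-/- mice that were stably transduced with wild-type NSD2 or with a control vector. NSD2 is an enzyme that places dimethylation on lysine 36 of histone H3. The comparison asks which transcripts differ between cells transduced with NSD2 and cells transduced with control vector. All cells of both groups lack p19ARF, grew in the same serum-containing medium and received no treatment. Each group held 2 arrays (n = 2). Separate cultures are not stated in the labels, so the p-values cover the spread between arrays, and this spread could be technical alone.

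These proteins share a core built of leucine-rich repeats, and many of them carry chondroitin, dermatan or keratan sulfate chains. Fibroblasts secrete them into the matrix, where they bind collagen fibrils and govern the fibrils' diameter and spacing. Decorin and biglycan also bind TGF-beta and cell-surface receptors, so that the family is known both for building connective tissue and for tuning growth factor signals.

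Of the 14 probes, 7 were above background on all 4 arrays, and they stand for 4 genes: Dcn, Bgn, Ogn and Omd. A probe counted as above background where its signal exceeded the upper 5% point of a background distribution made by mirroring the lower side of that array's signals. The Prelp probe was above background on 2 arrays and the Aspn probe on 1, while the 5 probes of Lum, Fmod, Podn and Kera were above it on 0 arrays. Differences of the dim probes are given for completeness, and their levels were not measurable here. None of the 14 probes passed the test between NSD2 and control vector cells (limma, Benjamini-Hochberg adjusted p = 0.9996 for each). The unadjusted limma p was under 0.05 for 2 of them, one of Dcn and that of Prelp, and for 3.91% of all 25697 probes. After adjustment 0.0156% of all probes were higher with NSD2 and 0.00% lower. A 2-against-2 design allows 3 splits of the arrays, so an exact permutation test of 1 gene cannot give a two-sided p below 0.333.

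The brightness of the arrays followed the replicate number at the 75th percentile of the signal, but less so at the median. The median was 164 and 172 on NSD2 arrays 1 and 2, against 173 and 204 on control vector arrays 1 and 2. It was highest on control vector array 2, and NSD2 array 2 was level with control vector array 1. The 75th percentile of the signal was 345 and 491 on NSD2 arrays 1 and 2, against 357 and 490 on control vector arrays 1 and 2, and each array had 42.3% to 45.9% of its probes above background. Of the fibroblast markers 7 of 9 were above background on all 4 arrays, with Fap above it on none. Markers of other cell types were also above it on all 4 arrays. Among the 4 measured epithelial markers these were Krt8, Krt18 and Krt14, with Cdh1 above it on 3 arrays. The others included Sp7 of bone, Scx of tendon, Pparg of adipocytes and Des of skeletal muscle. No endothelial or cartilage marker was above it on all 4 arrays. The labels also name blood as the tissue and give an age that embryonic fibroblasts cannot have, and neither entry was used. Of the 5 measured haematopoietic markers Cd14 was above background on all 4 arrays, Cd3e on 2, Ptprc on 1 and the other two on none. The transduced gene, Nsd2, has no named probe among those used, and its level was not analysed here.

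In the RefSeq annotation (GRCm38.p6) most of these genes lie side by side. Dcn, Lum and Kera are consecutive protein-coding genes, followed by Epyc, which encodes a further member of the family. Ecm2, Aspn, Omd and Ogn form another run, and Optc, Prelp and Fmod the third. Bgn and Podn have no family member next to them. Some neighbours differed in detection and others did not. Dcn was above background on all 4 arrays and its neighbours Lum and Kera on none, and the adjacent Omd and Ogn were above it on all 4 arrays and their neighbour Aspn on 1.

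The RefSeq promoter table (GRCm38.p6) has entries for 8 of the 10 genes, with none for Dcn and Lum. The 250 bases before the start of the 3 genes that were above background on all 4 arrays and have an entry are shown to compare their base composition. Capitals mark matches to TATAAA, the core of the TATA box, or to GGGCGG, the GC box, each searched on both strands.
Bgn, chrX:73483351-73483600, + strand: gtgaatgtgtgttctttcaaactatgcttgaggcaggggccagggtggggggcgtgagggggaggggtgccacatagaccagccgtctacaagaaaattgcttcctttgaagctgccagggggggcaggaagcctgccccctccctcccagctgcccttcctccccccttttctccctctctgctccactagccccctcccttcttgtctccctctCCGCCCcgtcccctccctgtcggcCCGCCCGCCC
Ogn, chr13:49607765-49608014, + strand: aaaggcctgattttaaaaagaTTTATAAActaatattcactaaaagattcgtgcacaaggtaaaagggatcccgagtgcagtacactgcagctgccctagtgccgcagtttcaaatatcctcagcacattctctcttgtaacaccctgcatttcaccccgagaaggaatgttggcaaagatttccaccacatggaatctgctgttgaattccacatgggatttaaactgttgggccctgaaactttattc
Omd, chr13:49582212-49582461, + strand: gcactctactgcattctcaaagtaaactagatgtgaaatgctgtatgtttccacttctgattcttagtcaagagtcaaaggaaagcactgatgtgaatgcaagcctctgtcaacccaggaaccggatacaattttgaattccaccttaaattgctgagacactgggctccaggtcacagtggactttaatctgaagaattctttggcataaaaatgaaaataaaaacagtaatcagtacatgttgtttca
The Bgn stretch was 64.4% G and C and held 3 GC boxes, whose first bases lie 34, 10 and 6 bases before the start, the last 2 overlapping. The Ogn stretch was 42.0% G and C and held the TATAAA letters once on each strand, overlapping, far from the start at 229 and 227 bases before it. The Omd stretch was 38.4% G and C and held neither motif. Over all 32851 promoters of the table the median was 52.4% G and C, 12.4% held TATAAA and 32.7% held GGGCGG in this window. Of the dim genes, Aspn had the lowest share of G and C, 30.0%, and 1 of the 2 Podn starts the highest, 78.0%.

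Decorin, encoded by Dcn, binds type I collagen and TGF-beta and is also known to bind and restrain the EGF and MET receptors. Its brighter probe (ILMN_2747959) had a signal of 8986 and 13356 on the NSD2 arrays, against 6324 and 9616 on the control vector arrays. After normalisation these were log2 intensities of 13.39 and 13.45 with NSD2 and 12.85 and 12.97 with control vector. Before normalisation the groups overlapped, with the first NSD2 signal (8986) below the second control vector signal (9616). On the normalised scale both NSD2 arrays were higher than both control vector arrays, and arrays of a group lay close together. The difference was 0.51 ± 0.20 on the log2 scale (SE, 95% interval 0.08 to 0.93, limma unadjusted p = 0.024, adjusted p = 0.9996), or 1.42-fold. Among the 9779 probes above background on all 4 arrays, 2.02% differed by at least this much in either direction. The other Dcn probe (ILMN_2596346) had log2 intensities of 11.56 and 11.52 with NSD2, against 11.17 and 11.13 with control vector. Again the groups did not overlap on the normalised scale. Before normalisation its first NSD2 signal (2471) lay below its second control vector signal (2774). Its difference was 0.39 ± 0.20 (SE, 95% interval -0.04 to 0.81), or 1.31-fold. In the authors' processed table the brighter probe stood at 11093 and 9944 with NSD2, against 7531 and 7789 with control vector, where the groups did not overlap either. In RNA of whole cultures, more RNA per cell and more cells that make it cannot be told apart.

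Biglycan, encoded by Bgn, is the closest relative of decorin and, once released from the matrix, is known to signal through the Toll-like receptors TLR2 and TLR4. Its probe (ILMN_2964042) had a signal of 21805 and 35306 on the NSD2 arrays, against 25900 and 44866 on the control vector arrays. The normalised log2 intensities were 14.61 and 14.91 with NSD2 and 14.85 and 15.19 with control vector. Here the second NSD2 array lay above the first control vector array, so the groups overlapped, and in both groups replicate 2 read higher than replicate 1. The difference was -0.26 ± 0.22 (SE, 95% interval -0.72 to 0.19, limma unadjusted p = 0.24, adjusted p = 0.9996), beside SDs of 0.22 with NSD2 and 0.24 with control vector. Between same-numbered arrays it was -0.25 for replicate 1 and -0.28 for replicate 2. Decorin and biglycan thus had means on opposite sides of 0, and whether their differences are unlike was not tested.

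Asporin, encoded by Aspn, resembles decorin and biglycan but has an aspartate-rich stretch. Its probe had a signal of 158 and 186 with NSD2, against 137 and 207 with control vector, and it was above background only on the second NSD2 array. The groups overlapped, and no fold is given.

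Osteoglycin, or mimecan, encoded by Ogn, carries keratan sulfate in the cornea and is made by fibroblasts of many tissues. The brightest of its 3 probes (ILMN_2859613) had log2 intensities of 12.03 and 12.36 with NSD2, against 11.83 and 12.07 with control vector. The probe ILMN_2859619 stood at 9.31 and 10.01 with NSD2 and at 9.38 and 10.07 with control vector. The probe ILMN_2740622 stood at 8.39 and 8.85 with NSD2 and at 7.75 and 8.98 with control vector. In all 3 probes the groups overlapped, and replicate 2 was higher than replicate 1 within both groups. For ILMN_2859619 replicate 2 exceeded replicate 1 by 0.70 with NSD2 and by 0.69 with control vector, while the difference between the groups was -0.07 ± 0.27 (SE). The other differences between the groups were 0.24 ± 0.21 and 0.25 ± 0.31. The Ogn probes did not give 1 direction, and none of the 3 differences passed the test. Leaving out 1 array moved that of ILMN_2859613 to between 0.08 and 0.40 and turned the sign of the others, to 0.28 for ILMN_2859619 without NSD2 replicate 1 or without control vector replicate 2, and to -0.37 for ILMN_2740622 without control vector replicate 1.

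Osteomodulin, or osteoadherin, encoded by Omd, carries keratan sulfate and is best known from bone matrix, where it binds hydroxyapatite and osteoblasts. Its probe had a signal of 251 and 319 on the NSD2 arrays, against 198 and 295 on the control vector arrays, close to the background thresholds of 178 to 219. The log2 intensities were 7.84 and 7.79 with NSD2 and 7.18 and 7.55 with control vector. Before normalisation the groups overlapped, with the first NSD2 signal (251) below the second control vector signal (295). On the normalised scale the groups did not overlap, with the first control vector array the lowest of the 4. The difference was 0.45 ± 0.21 (SE, 95% interval -0.00047 to 0.90, limma unadjusted p = 0.050, adjusted p = 0.9996). In the authors' processed values the probe stood at 158 and 153 with NSD2, against 79.2 and 117 with control vector, which keeps the order.

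**Figure D1:**
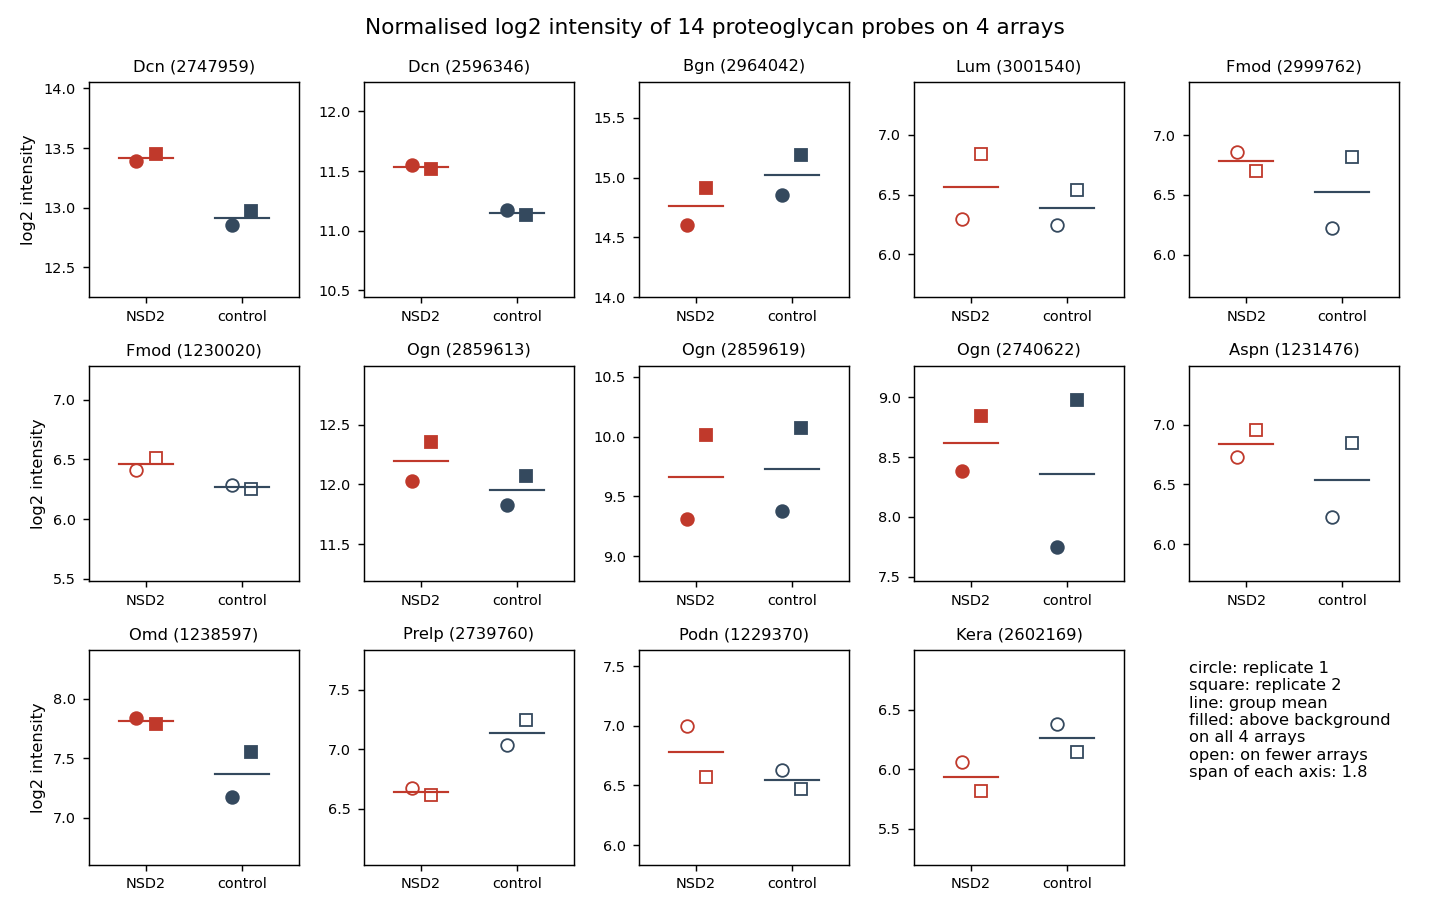
Normalised log2 intensity of each of the 14 probes, with the NSD2 arrays on the left and the control vector arrays on the right of each panel; circles are replicate 1, squares replicate 2, lines group means, and filled symbols mark probes above background on all 4 arrays. In the 2 Dcn panels each group is tight and the groups are apart, while in the 3 Ogn panels the squares lie above the circles in both groups.

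PRELP, encoded by Prelp, binds collagen and, through its basic amino terminus, heparan sulfate. Its probe had a signal of 154 and 156 on the NSD2 arrays, against 188 and 250 on the control vector arrays. It was above background on both control vector arrays and on neither NSD2 array, so the level with NSD2 is known only as an upper limit. Measured log2 intensities were 6.67 and 6.62 with NSD2 and 7.04 and 7.24 with control vector, and the groups did not overlap. Against the lowest value of a probe above background on each NSD2 array, mean Prelp was at least 1.12-fold lower with NSD2. This bound leaves out the spread between arrays, and the first control vector signal of 188 was close to that array's threshold of 185. The measured difference was -0.49 ± 0.20 (SE, limma unadjusted p = 0.028, adjusted p = 0.9996). In the authors' processed values it stood at 36.3 and 29.8 with NSD2, against 66.8 and 80.2 with control vector.

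The remaining genes were below background on every array. Lumican (Lum) and keratocan (Kera) are keratan sulfate proteoglycans of the cornea, where lumican is needed for transparency, fibromodulin (Fmod) binds collagen in tendon and cartilage, and podocan (Podn) was first described in the podocytes of the kidney. The measured differences were 0.18 ± 0.23 for Lum, 0.26 ± 0.23 and 0.19 ± 0.20 for the 2 Fmod probes, 0.23 ± 0.22 for Podn and -0.33 ± 0.21 for Kera (SE). The signals of these 5 probes lay between 114 and 175 on the NSD2 arrays and between 137 and 204 on the control vector arrays, and such values carry no fold.

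In normalised log2 intensity the groups did not overlap in 6 of the 14 probes, 4 higher and 2 lower with NSD2. Over all 25697 probes they did not overlap in 31.9%. Among the 7 probes above background on all 4 arrays, 3 were higher without overlap, 0 were lower without overlap and 4 overlapped. The corresponding shares of the 9779 probes above background on all 4 arrays were 14.8% higher and 15.6% lower. The 3 probes stand for only 2 genes, Dcn and Omd. The mean was higher with NSD2 in 10 of the 14 probes, and the median difference was 0.24, against -0.0026 over all probes. The 14 include the dim probes, whose levels were not measurable. At the brightest probe of each gene, the mean was higher in 7 of the 10 genes, against 8185 of all 16593 genes. Among genes above background on all 4 arrays it was higher in 3 of 4, against 3395 of 6902. With few genes and several probes per gene this is a description of these arrays and no test.

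**Figure D2:**
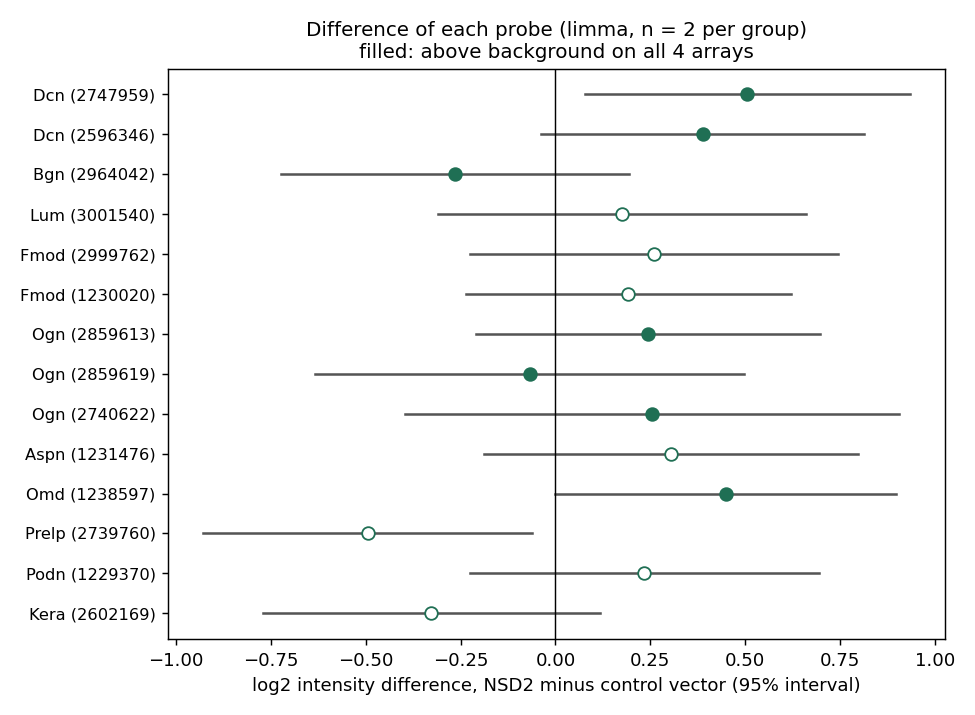
Difference in log2 intensity of each probe, NSD2 minus control vector, with the 95% interval of the moderated limma fit, not adjusted for the number of probes. Filled points are probes above background on all 4 arrays, and only the intervals of the brighter Dcn probe (0.08 to 0.93) and of the dim Prelp probe (-0.93 to -0.06) leave out 0.

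The genes whose pattern over the 4 arrays was most like that of the brighter Dcn probe were Pip4p2, Asb6 and Rgs12, among 6901 genes above background on all 4 arrays. The root mean square distance between the mean-centred log2 intensities was 0.013, 0.022 and 0.026. Pip4p2, for example, stood at 11.22 and 11.29 with NSD2, against 10.72 and 10.82 with control vector. In all, 70 of the 6901 genes lay within a distance of 0.1.

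Genes that act with these proteoglycans were followed in 6 lists, of which 96 genes were measured. None of the 96 passed the limma test after Benjamini-Hochberg adjustment over all probes. Of the 96, 8 had an unadjusted limma p under 0.05, a larger share than the 3.91% of all genes (649 of 16593). The lists were chosen with earlier results of these data known, and the difference between the shares was not tested. In each list a gene is given by its brightest probe. The counts of higher or lower means include dim genes. Over all 16593 genes 8185 had higher and 8408 lower means with NSD2.

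Of the related leucine-rich repeat genes, all 6 measured were above background on 0 arrays, among them Epyc and Ecm2, the neighbours of Kera and Aspn. All 6 had lower means with NSD2 (median -0.20), at signals that measure no level. Epyc had an unadjusted limma p of 0.048 at its brightest probe (adjusted p = 0.9996), and its other probe differed by -0.02. Tsku, another gene of this list, was not analysed here.

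Enzymes that build and sulfate the glycosaminoglycan chains were above background on all 4 arrays in 16 of 30 genes, and 18 of the 30 had higher means with NSD2 (median difference 0.05, against -0.0033 over all genes). Xylt2, a xylosyltransferase that starts a chain on the core protein, differed by -0.24 ± 0.20, and B4galt7, which adds the first galactose, by -0.15 ± 0.21 (SE). The dermatan sulfate epimerase gene Dse and the xylosyltransferase gene Xylt1 were above background on 0 arrays. Chst14, which encodes the dermatan 4-O-sulfotransferase, was above it on 2 arrays.

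Among the collagens and other matrix partners 13 of 16 had higher means with NSD2 (median 0.11), and 8 were above background on all 4 arrays. Col1a1 and Col1a2, which encode the chains of the type I collagen that decorin binds, differed by 0.33 ± 0.23 and 0.02 ± 0.22, and their groups overlapped. Col3a1 differed by 0.05 ± 0.22 at its brightest probe and by 0.72 ± 0.25 at another, and Col5a1 by -0.19 ± 0.21 (SE). At the brightest probes, the genes of this list with unadjusted limma p under 0.05, named after their values were seen, were Col6a1 and Col2a1. Other probes, such as that of Col3a1, were not counted. Col6a1 differed by 0.44 ± 0.20 (above background on all 4 arrays) and the cartilage collagen gene Col2a1 by 0.70 ± 0.25 (above it on 2). Both were without overlap and had a limma adjusted p of 0.9996. Their other probes differed by 0.21.

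Of the growth factors and receptors that these proteins bind, 6 of 15 had higher means with NSD2 (median -0.08). Lrp1, an endocytic receptor that takes up decorin, stood at 7.67 ± 0.23 with NSD2, against 8.27 ± 0.04 with control vector (SD, n = 2 each), a difference of -0.61 ± 0.21 (SE, limma unadjusted p = 0.011, adjusted p = 0.9996). The other genes of this list with an unadjusted p under 0.05, named after their values were seen, had higher means with NSD2 and no overlap between the groups: the growth factor gene Bmp4 differed by 0.54 ± 0.21 and the elastin gene Eln, above background on 3 arrays, by 0.62 ± 0.23 (SE, limma adjusted p = 0.9996 for each). Egfr differed by -0.28 ± 0.21 and Met by 0.31 ± 0.21, and other Egfr probes above background on all 4 arrays by -0.22 and 0.14. Tgfb1 differed by -0.09 ± 0.20, Tlr2 by 0.12 ± 0.21 and Tlr4 by 0.16 ± 0.21, all above background on all 4 arrays.

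Among the proteases that process or degrade the family 7 of 15 had higher means with NSD2 (median -0.02). Bmp1, the procollagen C-proteinase that also cleaves the biglycan precursor, stood at 11.09 ± 0.01 with NSD2, against 11.65 ± 0.02 with control vector (SD, n = 2 each), a difference of -0.56 ± 0.20 (SE, limma unadjusted p = 0.013, adjusted p = 0.9996). Its other probes above background on all 4 arrays differed by -0.36 ± 0.21 and -0.04 ± 0.21. The collagenase and gelatinase genes Mmp14 and Mmp2 differed by -0.39 ± 0.21 and 0.24 ± 0.21, each without overlap between the groups.

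Other matrix proteoglycans had lower means with NSD2 in 10 of 14 genes (median -0.14), and 3 of them were above background on all 4 arrays. One of these 3, the versican gene Vcan, stood at 7.31 and 7.06 with NSD2, against 7.64 and 7.40 with control vector, a difference of -0.33 ± 0.21 (SE). Its groups did not overlap, and the difference did not pass the test. The only gene of this list with an unadjusted limma p under 0.05, named after its values were seen, was Cspg4. It was above background on 3 arrays and differed by -0.49 ± 0.21 without overlap (SE, limma unadjusted p = 0.034, adjusted p = 0.9996).

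**Figure D3:**
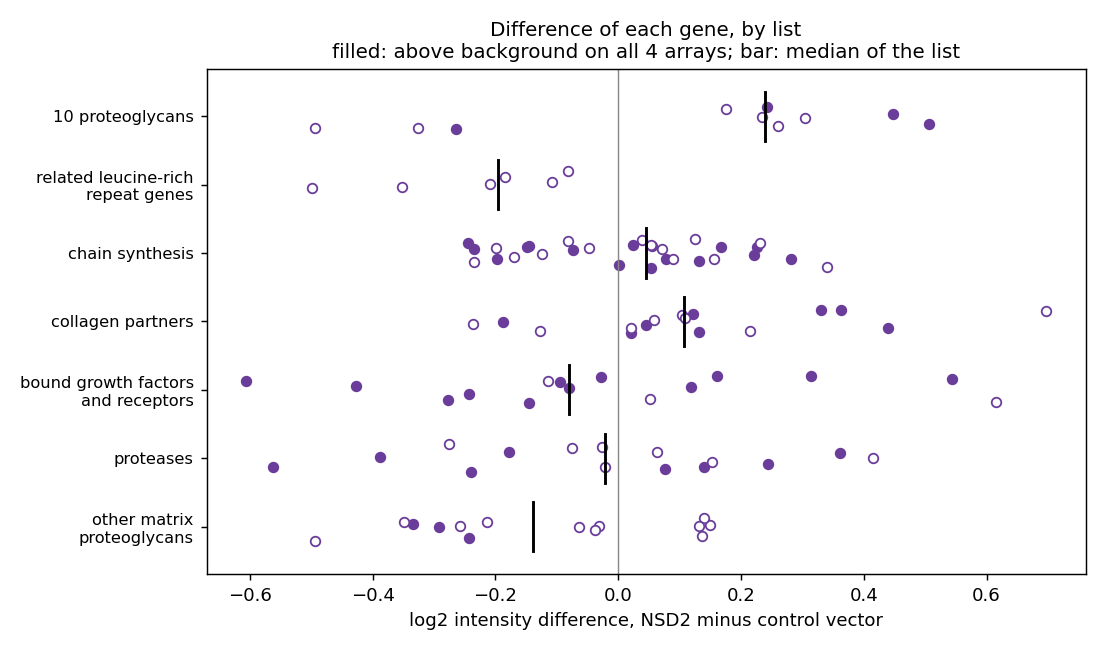
Difference in log2 intensity, NSD2 minus control vector, of each measured gene in the proteoglycan family and in the 6 lists around it, 1 point per gene at its brightest probe. Filled points are genes above background on all 4 arrays and bars are list medians, which lie between -0.20 and 0.24.

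Under the other processing settings the difference of the brighter Dcn probe lay between 0.46 and 0.53, and with 1 array left out between 0.45 and 0.57. The other Dcn probe lay between 0.37 and 0.44, and between 0.37 and 0.41 with 1 array left out. Bgn lay between -0.34 and -0.24 under the other settings, and between -0.44 and -0.09 with 1 array left out. Omd lay between 0.33 and 0.69, and between 0.27 and 0.62 with 1 array left out. These 4 probes kept their sign throughout, and under none of the alternatives did a probe of the family pass the test.

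**Figure D4:**
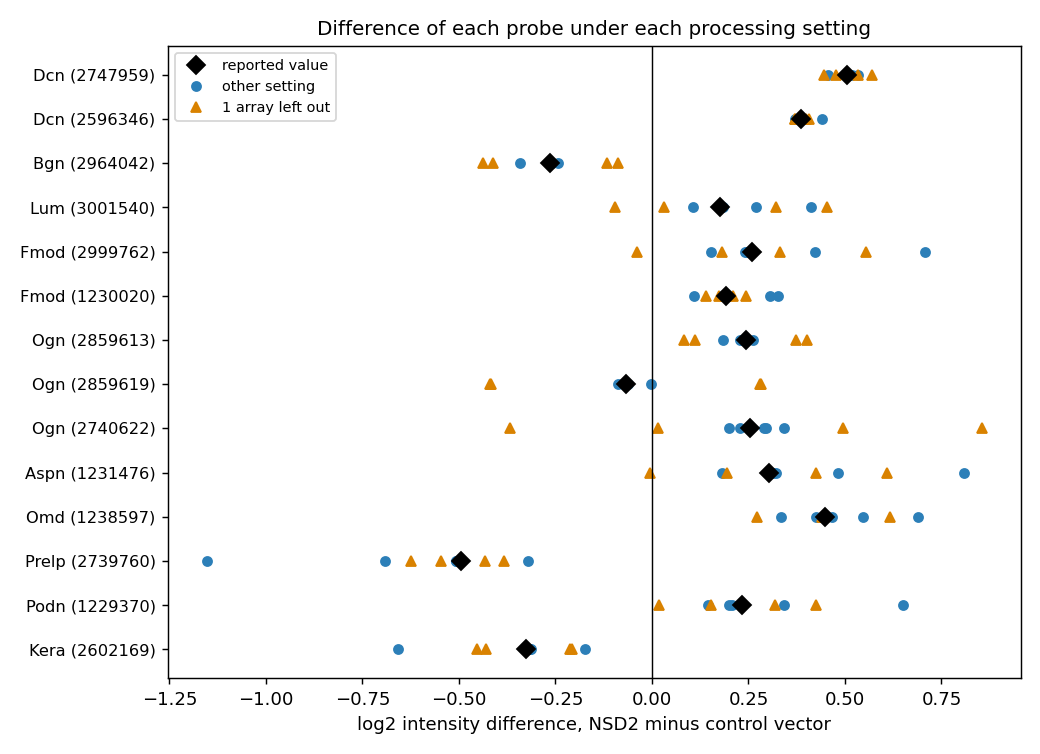
Difference in log2 intensity, NSD2 minus control vector, of each probe as reported (diamond), with 1 array left out (triangles) and under the other processing settings (circles). The triangles of the 2 Dcn probes lie within 0.37 to 0.57, while those of the dimmest Ogn probe run from -0.37 to 0.85.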

How the data were processed

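Total RNA of 4 samples was hybridised to Illumina mouse bead arrays, and groups and replicate numbers came from the sample titles. Triplicates are mentioned in the series' design text, and the analysis used 2 arrays for each group. Per the file headers, the first deposited table holds the average bead signal, an intensity on a linear scale, for 25697 probes, with no detection p-values. The second holds the authors' processed intensity values, with a Spearman correlation across probes of 1 with the same array's signal, medians of 48.6, 42.3, 48.7 and 42.4 (NSD2 1 and 2, control vector 1 and 2) and 225 to 1470 negative values per array. They are thus linear and of the same direction, and the authors' normalisation is not stated in the labels or headers. Gene symbols were the RefSeq symbols matched by the gene identifiers of the platform annotation. Where no RefSeq symbol matched, the platform symbol was kept. In this way 23978 probes named 1 gene and 1719 were unnamed.

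Signals were background-corrected by normexp with an offset of 50 and quantile-normalised, since detection p-values for neqc were lacking, and groups were compared with lmFit and eBayes (limma 3.58.1, R 4.3.3), two-sided, with Benjamini-Hochberg adjustment over all probes at 0.05. The offset compresses differences of dim probes. The procedure was tested on simulated data. The genes named are all members, a fixed set of related genes and cell type markers. The 3 genes nearest in pattern to the member with the largest difference are also named. Genes near that pattern were sought among those above background on all 4 arrays. Col6a1, Col2a1, Bmp4, Eln and Cspg4 lay outside the fixed set and were named after their values were seen (each unadjusted limma p under 0.05). The members and lists were chosen with earlier results of these data known. Alternatives were other background, offset, normalisation, filter and variance settings, the authors' values with a floor of 16, the replicate number as a term, and each array left out. The number of arrays limits the precision.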

Additional observations from a re-analysis of the deposited data

How the results depend on the processing

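Over all probes, 4 changed with NSD2 as reported. This count was 3 with no background correction and 5 with cyclic loess. It was 0 with an offset of 16 (limma, 1105 probes at an unadjusted p under 0.05), median scaling (327 probes), the authors' processed values (1584 probes) and the filter to probes above background on all 4 arrays (331 probes). It was 1 with the filter to probes above background on at least 2 arrays and 13 with robust trended moderation. Leaving out 1 array gave 3 to 15, with 15 without control vector replicate 2, 12 without control vector replicate 1 and 7 without NSD2 replicate 2; a group left with 1 array is assumed to have the spread of the other.

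Same-numbered arrays deviated together (correlation 0.52 across probes above background on all 4 arrays, probes not being independent), but the labels do not say what the number marks. With the replicate number as a block 48 probes changed. Of the 14 proteoglycan probes 0 passed in that fit or in any alternative, and the smallest adjusted p was 0.438, for Dcn with the block.

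Of 168 values of proteoglycan probes under the alternatives 6 changed sign, all when 1 array was left out and in 5 probes. Leaving out single arrays gave -0.096 to 0.45 for Lum (negative without NSD2 replicate 2), -0.039 to 0.56 for the Fmod probe ILMN_2999762 and -0.0051 to 0.61 for Aspn (both negative without control vector replicate 1). It gave -0.42 to 0.28 for the Ogn probe ILMN_2859619 and -0.37 to 0.85 for ILMN_2740622. The other 9 probes kept their sign, Podn with 0.018 to 0.42 when single arrays were left out, with no value for Kera in the authors' table, where it lay under the floor on all 4 arrays. Prelp reached -1.15 with the authors' values. The causes were not tested.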
